A study of Mus musculus with 9 samples.

Results

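The genes described here encode chains of collagens, laminins and integrins, measured in AML12 cells. AML12 is a hepatocyte line derived from a transgenic mouse that overexpresses transforming growth factor alpha. They were chosen by symbol among the protein-coding genes of the GENCODE M21 mouse annotation. A symbol had to be Col, digits, a and a digit, or Lama, Lamb or Lamc with a digit, or Itga or Itgb with a digit or the letter L, M, V or X. This picked 76 of the 21959 genes listed in the tables, namely 44 collagens, 11 laminins, 13 integrin alpha chains and 8 integrin beta chains, and no measured value entered the choice. Read to the letter, the rule left out Itga10, which had 119 to 177 counts per library, and Itga11, Itga2b, Itgad and Itgae, which had at most 42.

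Gene expression was read by RNA sequencing in 9 libraries, 3 per group, all from AML12 cells kept under free fatty acid (FFA) conditions. OCY-EV+ANTA cells were given vesicles released by aged osteocytes, after these vesicles had stood for 30 min with antagomir-483-5p, an oligonucleotide made to block the microRNA miR-483-5p. OCY-EV+ANTA-NC cells received such vesicles after 30 min with the control oligonucleotide antagomir-NC, and both vesicle groups were dosed at 2 µg/ml. Veh cells received PBS. After the incubation the vesicles were ultracentrifuged according to one label and ultrafiltered according to another. No group had vesicles without an antagomir, an antagomir without vesicles, or no fatty acid. Whether the replicate libraries stem from separate cultures is not stated, so each p-value reflects only their spread, which may be technical. The design asks what the osteocyte vesicles do to fat-loaded hepatocytes and how much of it depends on their miR-483-5p.

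Collagens are trimers of alpha chains that build fibrils or, as type IV, the network of basement membranes. Laminins are trimers of an alpha, a beta and a gamma chain that form the other basement membrane network. Integrins pair an alpha with a beta chain in the cell membrane, bind collagen, laminin, fibronectin or other ligands outside the cell, and link them to actin inside. In liver, fibrillar collagen comes mainly from stellate cells and fibroblasts, and hepatocytes face little basement membrane, whereas bile duct cells rest on one.

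Library totals lay between 17298814 and 21737643 counts, of which the 76 genes took 0.643% to 0.673%. The label of hepatocyte was only in part borne out by markers: Hnf4a, a transcription factor of hepatocytes, had 836 to 1221 counts, but Alb had 30 to 135, Cyp2e1 at most 1 and Serpina1c 0. Krt19, a bile duct cytokeratin, had 42834 to 55409 counts, while Epcam, which also marks bile ducts, was at 0. Of the 10 stellate cell and fibroblast markers, Lrat, Dcn, Lum and Hand2 were at 0 in every library and Acta2 had at most 2 counts. Pdgfrb, Reln and Thy1 had at most 5, but Des had 37 to 62 counts and Pdgfra 33 to 53. Sost and Dmp1, markers of osteocytes, were at 0 too.

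The microRNA that the antagomir was made to block, and the letters it could pair with, were set beside the genes first. The mature miR-483-5p (RefSeq, GRCm38.p6, chr7:142654968-142654989, minus strand) is printed with its seed, bases 2 to 8, in capitals. Below it stand the stretches after the stop codon of Col1a1 (GRCm38, chr11:94952119-94952125, plus strand) and of Itga6 (chr2:71856557-71856563, plus strand), with the letters that pair with the seed, CCCGTCT, in capitals.
miR-483-5p: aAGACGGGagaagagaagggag
Col1a1: ccctcaacCCCGTCTacttccct
Itga6: cacaggttCCCGTCTcccttgtc
These were the only tested genes of the set with this match after the stop codon in any GENCODE M21 transcript, 2 of 42 or 4.76%, against 408 of 11451 tested genes with such sequence or 3.56%. Among the 34 genes of the set that were too low to test, Itgb8 also held it and had 0 counts. A match of letters is a description and does not show a site in use.

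Promoter sequence is shown for 3 genes that moved together in the results that follow, Itga1, Col15a1 and Col27a1, and for Itga2, which neighbours Itga1. Each run holds the 250 bases before the start of the gene in RefSeq (GRCm38.p6), which for Col15a1 and Col27a1 is not the start that GENCODE gives. Capitals mark matches, on either strand, to any of 6 motifs.
Itga1 (chr13:115101965-115102214, minus strand): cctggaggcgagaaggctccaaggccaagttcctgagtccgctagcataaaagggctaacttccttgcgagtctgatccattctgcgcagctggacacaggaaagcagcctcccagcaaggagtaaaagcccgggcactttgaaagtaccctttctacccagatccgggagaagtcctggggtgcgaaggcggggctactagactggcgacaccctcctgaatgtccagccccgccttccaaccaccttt
Itga2 (chr13:114932101-114932350, minus strand): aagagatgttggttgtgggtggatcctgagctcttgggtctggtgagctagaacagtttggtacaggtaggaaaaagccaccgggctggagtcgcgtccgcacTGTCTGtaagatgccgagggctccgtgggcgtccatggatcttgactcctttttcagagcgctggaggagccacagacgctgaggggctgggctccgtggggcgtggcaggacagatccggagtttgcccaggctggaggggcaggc
Col15a1 (chr4:47207762-47208011, plus strand): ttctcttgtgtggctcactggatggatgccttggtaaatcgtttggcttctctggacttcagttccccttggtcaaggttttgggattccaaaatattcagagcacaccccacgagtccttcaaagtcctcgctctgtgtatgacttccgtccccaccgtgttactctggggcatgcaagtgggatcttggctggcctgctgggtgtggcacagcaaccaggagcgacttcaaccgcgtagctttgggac
Col27a1 (chr4:63215162-63215411, plus strand): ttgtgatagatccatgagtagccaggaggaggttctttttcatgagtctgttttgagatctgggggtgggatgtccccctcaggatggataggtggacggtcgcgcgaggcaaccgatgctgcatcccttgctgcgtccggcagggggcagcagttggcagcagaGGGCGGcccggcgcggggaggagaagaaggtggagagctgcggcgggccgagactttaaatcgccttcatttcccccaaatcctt
The motifs searched were AP-1 as TGANTCA, SMAD as CAGACA, TEAD as GGAATG, the GC box as GGGCGG, the TATA box as TATAAA and the CCAAT box as CCAAT. Itga2 held 1 SMAD match and Col27a1 held 1 GC box, while the windows of Itga1 and Col15a1 held none of the 6. RefSeq windows were found for 55 of the 76 symbols, 30 of these among the 42 genes tested. The shares that follow thus also cover genes too low to test, over 61 windows in all. The GC box stood in 50.8% of them, against 32.7% of all 32841 mouse windows, and the SMAD letters in 26.2%, against 17.1%. The AP-1 letters stood in 3.28% of the 61 windows, against 6.75% of all windows, and the TEAD letters in 9.84%, against 12.6%. The TATA box stood in 8.2%, against 12.4%, and the CCAAT box in 27.9%, against 33.9%. Itgb3 and Itga7 have no window here.

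AML12 cells expressed basement membrane chains and their receptors, and next to no collagen of types I and III. In FPKM (counts scaled by gene length and library total), which allows levels of different genes to be compared, 16 of the 76 genes averaged at least 10 over the 9 libraries and another 11 averaged 1 to 10. A further 15 were tested with a mean under 1 FPKM, 26 had at most 9 counts in any library, and 8 were at 0 throughout. Those at 0 were Col1a2, Col3a1, Col13a1, Col19a1, Col28a1, Itga4, Itgb8 and Lama1. A count of 0 allows up to 3 counts per library, and this covers counting error only. Since a gene needed about 10 counts in 3 libraries to be tested, 42 genes were, made up of 19 collagens, 9 laminins, 7 integrin alpha and 7 integrin beta chains. Col9a3, Col4a4 and Lama2 passed with counts above that limit in only some of the libraries, and none passed through 1 group alone.

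**Figure D1:**
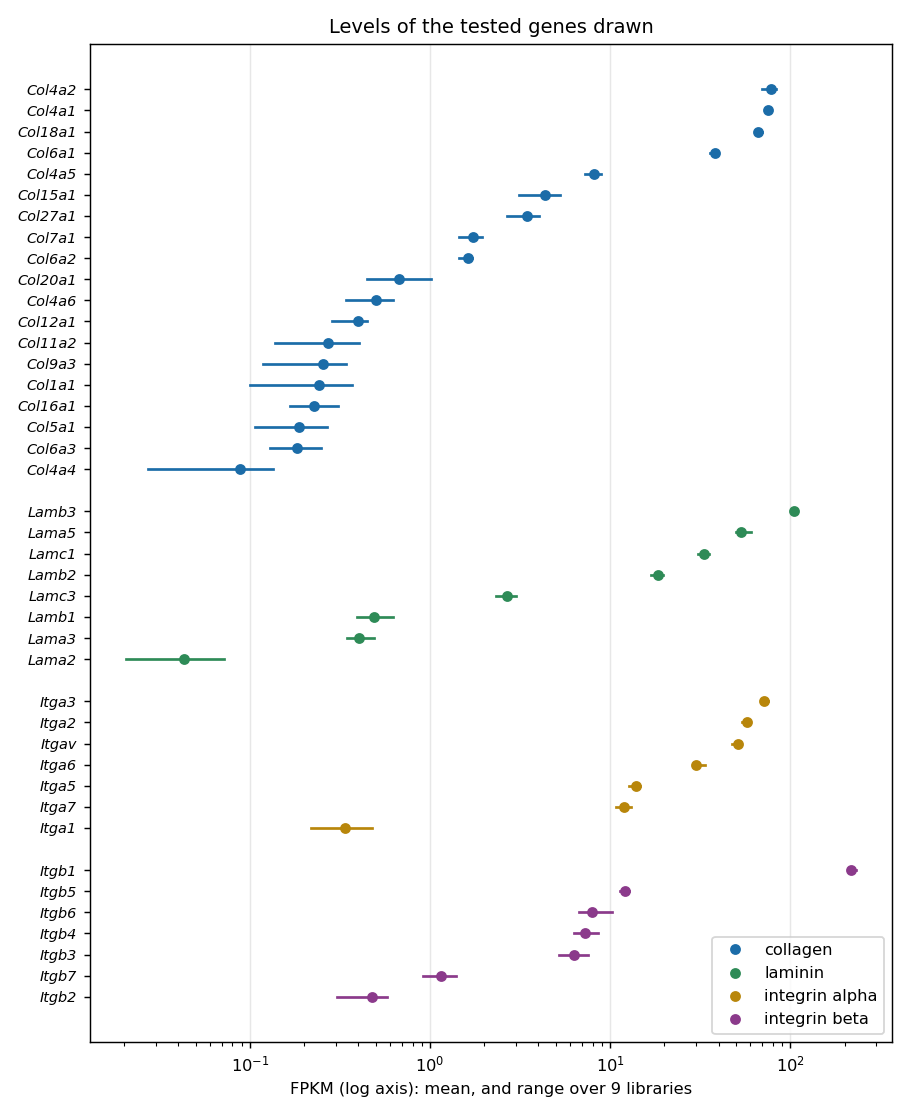
Mean FPKM (log axis) of 41 of the 42 tested genes over 9 libraries, with bars for the lowest and highest library, grouped by family and sorted by level. Itgb1 stands highest at 217 FPKM and Lama2 lowest at 0.043 FPKM.

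Among collagens, the paired chains of type IV led: Col4a2 averaged 78.2 FPKM and Col4a1 75.2 FPKM. Their genes lie head to head on chromosome 8 (GRCm38, Col4a1 from 11198423 to 11312826 on the minus strand, Col4a2 from 11312805 to 11449287 on the plus strand), and their annotated ends overlap by a few bases. Col18a1, the core chain of a basement membrane collagen that yields endostatin, averaged 65.9 FPKM, and Col6a1, a chain of beaded filament collagen VI, 38.2 FPKM. Its partner chains were far lower, Col6a2 at 1.62 FPKM and Col6a3 at 0.182 FPKM. Col4a5 averaged 8.12 FPKM and its head to head neighbour on the X chromosome, Col4a6, 0.503 FPKM. Of the chains of type I collagen, Col1a1 had 12 to 44 counts and Col1a2 was at 0.

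Laminin chains were led by Lamb3 at 105 FPKM, the beta chain of the epithelial laminin that anchors hemidesmosomes. Lama3, the alpha chain with which it assembles, was lower at 0.404 FPKM. Lama5, the alpha chain of most adult epithelial basement membranes, averaged 53.6 FPKM, with Lamc1 at 33.2 FPKM and Lamb2 at 18.5 FPKM to pair with it, while Lamb1 stood at 0.489 FPKM. Lama3 was far under Lamb3 in every group, at 0.383, 0.447 and 0.383 FPKM in OCY-EV+ANTA, OCY-EV+ANTA-NC and Veh.

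Integrin chains were led by Itgb1, the beta chain shared by most collagen, laminin and fibronectin receptors, at 217 FPKM. Its alpha partners ran from Itga3, for laminin, at 71.8 FPKM, through Itga2, for collagen, at 57.4 FPKM and Itga6, for laminin, at 30.0 FPKM, to Itga5, for fibronectin, at 13.9 FPKM and Itga7, for laminin, at 11.9 FPKM. Itga1, the other collagen-binding partner among the tested genes, was low at 0.337 FPKM. Itgav averaged 51.4 FPKM, with its beta partners Itgb5 at 12.03, Itgb6 at 7.93 and Itgb3 at 6.33 FPKM, and Itgb4, which pairs with Itga6 in hemidesmosomes, averaged 7.24 FPKM. The ranges over libraries of Itgb6, Itgb4 and Itgb3 overlapped, so their order does not differ beyond the spread. The leukocyte chains Itgal, Itgam and Itgax had at most 9 counts, and 68.7% of the exon bases of Itgam are shared with another gene on its strand, which could take its reads.

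Summed over a family, levels moved little between groups. Collagens summed to 275 ± 2.1 FPKM in OCY-EV+ANTA, 277 ± 9.8 in OCY-EV+ANTA-NC and 287 ± 4.6 in Veh (SD, n = 3 each), and laminins to 227 ± 6.5, 219 ± 8.9 and 223 ± 5.6 FPKM. Integrin alpha chains summed to 232 ± 5.6 FPKM in OCY-EV+ANTA, 237 ± 2.6 in OCY-EV+ANTA-NC and 241 ± 4.0 in Veh, and beta chains to 253 ± 12, 255 ± 5.1 and 249 ± 3.9 FPKM. The changes that follow were in single genes.

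OCY-EV+ANTA differed from OCY-EV+ANTA-NC in 11 of the 42 tested genes, 5 higher and 6 lower, which is 26.2% of them. Over all 11562 genes tested 14.7% were called, 7.59% higher (878 genes) and 7.09% lower (820 genes), the background against which the 26.2% is to be read. A gene was called when its Benjamini-Hochberg adjusted p in edgeR's quasi-likelihood test, over all genes tested, was under 0.05. The median log2 fold change was -0.0068 over the 42 genes and -0.002 over all genes tested. By family, 1 collagen was higher and 3 lower, 2 laminins were higher and 0 lower (0 also at an unadjusted p under 0.05, in DESeq2 and in limma on FPKM), and of the integrin chains 2 were higher and 3 lower. When libraries were scaled by their totals alone, the calls over all genes became 530 higher and 1155 lower, and on log2(FPKM + 1) 392 higher and 881 lower. Under both scalings 8 uncalled genes of the set close to 0 turned from a positive to a negative value, among them Col4a1, Col6a1, Col6a2, Col18a1, Itga3, Itgb1 and Lamb1, while the 11 called genes kept their direction. In a bulk sample, fewer cells of a kind and less RNA per cell cannot be told apart. Values between groups are given in CPM, counts scaled to a common library size by the trimmed mean of M values (TMM). On this scale the vesicle groups did not overlap in 11 of the 42 genes and in 3461 of all 11562 genes tested. A lack of overlap was thus common with 3 libraries per group.

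Among the collagens, Col15a1 encodes a collagen of the outer face of basement membranes (chromosome 4, 47208161 to 47313167, plus strand, GRCm38). It had 20.2, 24.2 and 19.9 CPM in OCY-EV+ANTA, 32.8, 28.6 and 33.1 CPM in OCY-EV+ANTA-NC, and 29.3, 28.1 and 31.8 CPM in Veh. All 3 OCY-EV+ANTA libraries lay under the other 6. The fall against OCY-EV+ANTA-NC was -0.56 on the log2 scale (SE 0.08, adjusted p = 8.908e-05).

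Col27a1, a fibrillar collagen of cartilage (chromosome 4, 63214004 to 63334991, plus strand), had 41.6, 35.2 and 41.8 CPM in OCY-EV+ANTA, 49.2, 52.1 and 48.3 CPM in OCY-EV+ANTA-NC, and 44.5, 47.0 and 47.7 CPM in Veh. The OCY-EV+ANTA libraries were again under all others, though by less against Veh. It fell by 0.33 against OCY-EV+ANTA-NC (SE 0.06, adjusted p = 0.00111). Col4a5, a type IV chain (chromosome X, 141475385 to 141689234, plus strand), had 48.9, 51.2 and 54.7 CPM in OCY-EV+ANTA, 57.3, 59.4 and 55.7 CPM in OCY-EV+ANTA-NC, and 53.4, 55.9 and 54.4 CPM in Veh. It stood lower in OCY-EV+ANTA than in OCY-EV+ANTA-NC by a small step (-0.15, SE 0.05, adjusted p = 0.0477), and the OCY-EV+ANTA and Veh libraries overlapped. The neighbouring Col4a6 was at -0.35 (SE 0.18, adjusted p = 0.229), not called.

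Col6a3 was the collagen that rose. This chain of collagen VI (chromosome 1, 90765923 to 90843971, minus strand) had 2.99, 2.70 and 2.70 CPM in OCY-EV+ANTA, 1.52, 1.60 and 1.58 CPM in OCY-EV+ANTA-NC, and 2.19, 2.49 and 1.90 CPM in Veh. The OCY-EV+ANTA libraries were the highest and the OCY-EV+ANTA-NC libraries the lowest, with Veh between them. The log2 fold change was 0.83 (SE 0.21, adjusted p = 0.0115), on only 28 to 54 counts per library. DESeq2 gave it no adjusted p, and on the FPKM scale it was not called (adjusted p = 0.0855 with a pseudocount of 1 and 0.0584 with 0.1). Its partners Col6a1 and Col6a2 gave 0.02 (SE 0.04) and 0.02 (SE 0.09), not called.

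The most abundant collagens were not called between the vesicle groups. Col4a1 averaged 562 ± 10 CPM in OCY-EV+ANTA and 551 ± 24 CPM in OCY-EV+ANTA-NC (SD, n = 3 each), with a fold change of 0.03 in log2 (SE 0.03, adjusted p = 0.612). Col4a2 averaged 525 ± 13 and 493 ± 35 CPM in the same groups (0.09, SE 0.04, adjusted p = 0.159), and Col18a1 454 ± 2.6 and 453 ± 12 CPM (0.00, SE 0.03, adjusted p = 0.959). Col1a1, which holds the seed match, had 1.15, 0.937 and 1.51 CPM in OCY-EV+ANTA and 0.651, 2.24 and 2.24 CPM in OCY-EV+ANTA-NC. These overlap, and its -0.51 (SE 0.36, adjusted p = 0.389) was not called.

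Laminin chains that were called were higher in OCY-EV+ANTA, and by little. Lamb3 (chromosome 1, 193207699 to 193343878, plus strand) had 723, 711 and 702 CPM in OCY-EV+ANTA, 667, 661 and 685 CPM in OCY-EV+ANTA-NC, and 710.1, 694 and 726 CPM in Veh. The vesicle groups did not overlap, but OCY-EV+ANTA and Veh did, and the log2 fold change between the vesicle groups was 0.09 (SE 0.03, adjusted p = 0.0441). Lamc1, the most widely used gamma chain (chromosome 1, 153218922 to 153332786, minus strand), had 268, 298 and 296 CPM in OCY-EV+ANTA, 251, 258 and 277 CPM in OCY-EV+ANTA-NC, and 272, 269 and 286 CPM in Veh. These groups overlapped even where the call stood, at 0.13 (SE 0.04, adjusted p = 0.0459). The chains that share trimers with them were not called: Lama5 gave 0.05 (SE 0.06), Lamb2 0.09 (SE 0.05) and Lama3 -0.19 (SE 0.16).

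Among the receptors, the largest fall was that of Itga1, whose product pairs with that of Itgb1 to bind collagens, type IV above all (chromosome 13, 114953096 to 115101964, minus strand). Itga1 had 4.54, 4.10 and 4.10 CPM in OCY-EV+ANTA, 8.79, 6.68 and 6.46 CPM in OCY-EV+ANTA-NC, and 7.02, 6.88 and 7.84 CPM in Veh. The OCY-EV+ANTA libraries were close together and well under the other 6. This was a ratio of mean CPM of 0.581 and a log2 change of -0.78 (SE 0.15, adjusted p = 0.00157), on 70 to 162 counts per library. Another gene on its strand shares 3.7% of its exon bases. Itga2, the neighbouring gene for the other collagen receptor, starts 20995 bases beyond the end of Itga1 on the same strand. It gave -0.07 (SE 0.03, adjusted p = 0.0927).

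Itgb3, which with Itgav forms a receptor for vitronectin, fibronectin and osteopontin (chromosome 11, 104608000 to 104670476, plus strand), had 32.0, 32.8 and 31.0 CPM in OCY-EV+ANTA, 40.3, 37.9 and 38.1 CPM in OCY-EV+ANTA-NC, and 38.8, 40.6 and 44.6 CPM in Veh. OCY-EV+ANTA lay apart from both other groups, which overlapped each other. The fall was -0.28 (SE 0.06, adjusted p = 0.00333). Itga7, a laminin receptor chain best known from muscle (chromosome 10, 128933818 to 128958282, plus strand), had 88.4, 89.2 and 88.6 CPM in OCY-EV+ANTA, 99.6, 97.5 and 99.1 CPM in OCY-EV+ANTA-NC, and 101, 104 and 106 CPM in Veh. The groups were separate in that order, and the fall against OCY-EV+ANTA-NC was -0.15 (SE 0.04, adjusted p = 0.0124).

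The 2 integrin chains that stood higher pair with each other. Itga6 (chromosome 2, 71745616 to 71858416, plus strand), which holds the other seed match, had 312, 282 and 278 CPM in OCY-EV+ANTA, 263, 273 and 265 CPM in OCY-EV+ANTA-NC, and 269.9, 263 and 265 CPM in Veh. The first OCY-EV+ANTA library was the highest by a wide margin, and the log2 fold change was 0.12 (SE 0.04, adjusted p = 0.0396). Itgb4 (chromosome 11, 115974709 to 116008412, plus strand) had 60.9, 53.8 and 52.2 CPM in OCY-EV+ANTA, 48.0, 47.9 and 48.6 CPM in OCY-EV+ANTA-NC, and 44.0, 51.4 and 50.8 CPM in Veh. The same library was the highest here, and the log2 fold change was 0.21 (SE 0.06, adjusted p = 0.0319). A noncoding gene on the opposite strand overlaps 7.7% of the exon bases of Itgb4, and the strand setting of the counting is not given.

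The partners of these chains gave no call. Itgb1 had 954, 879 and 868 CPM in OCY-EV+ANTA, 898, 882 and 865 CPM in OCY-EV+ANTA-NC, and 893, 873 and 864 CPM in Veh, with a log2 fold change of 0.03 between the vesicle groups (SE 0.03, adjusted p = 0.591). Itgav gave -0.02 (SE 0.03), Itga3 0.01 (SE 0.03), Itgb5 -0.02 (SE 0.05), Itgb6 -0.12 (SE 0.09) and Itga5 0.13 (SE 0.05, adjusted p = 0.108).

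**Figure D2:**
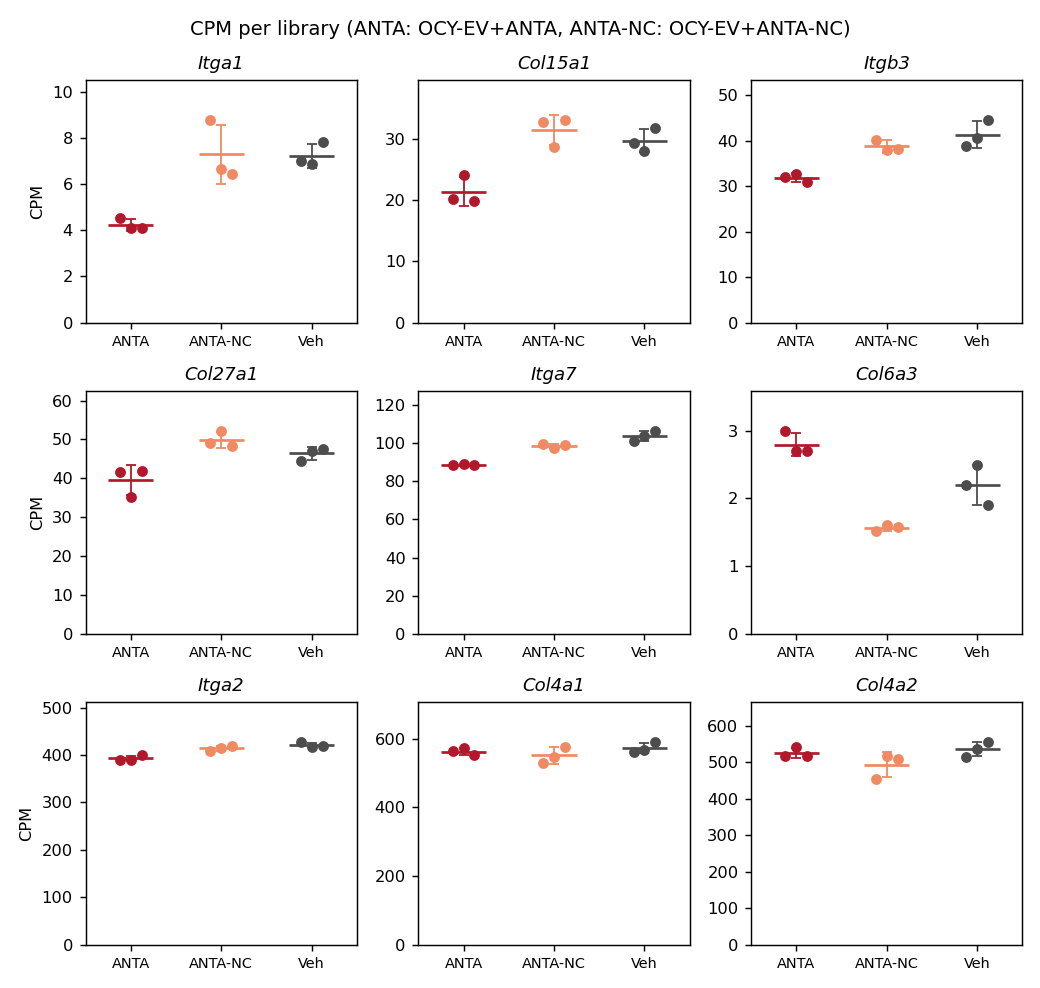
CPM of 9 genes in each library of OCY-EV+ANTA (left in each panel), OCY-EV+ANTA-NC and Veh (points), with the group mean (line) and SD (bar, n = 3), axes from 0. Itga1 lies at 4.10 to 4.54 CPM in OCY-EV+ANTA, against 6.46 to 8.79 CPM in OCY-EV+ANTA-NC, while Col4a1 and Col4a2 overlap between groups.

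The 11 calls were not equally firm. Those of Col15a1, Col27a1, Itga1, Itgb3 and Itga7 held when any of the 9 libraries was left out and under all 11 other settings tried, with adjusted p up to 0.0359. Col6a3 held without any of the 9 libraries (adjusted p up to 0.0396). The other calls rested on single libraries, Veh libraries included, since these shape the shared estimate of spread. Itgb4 lost its call without OCY-EV+ANTA 1 or 2 or without any of the OCY-EV+ANTA-NC libraries (adjusted p up to 0.173). Without OCY-EV+ANTA 1 its log2 fold change was 0.13 and that of Itga6 0.07. Itga6 lost it without OCY-EV+ANTA 1 or 2, any OCY-EV+ANTA-NC library, or Veh 2 or 3 (up to 0.244). Lamc1 lost it without OCY-EV+ANTA 2 or 3, OCY-EV+ANTA-NC 1 or 2, or any Veh library (up to 0.203). Lamb3 kept it only without OCY-EV+ANTA-NC 3 (up to 0.159 otherwise). Col4a5 kept it only without OCY-EV+ANTA 3 or OCY-EV+ANTA-NC 3 (up to 0.166 otherwise). Settings mattered too. With library totals alone, Itgb4, Itga6, Lamc1 and Lamb3 were not called (adjusted p = 0.0659, 0.12, 0.125 and 0.203), nor were they on the FPKM scale. With only the 2 groups compared, Itga6, Lamc1, Lamb3 and Col4a5 were not called (adjusted p = 0.067, 0.0658, 0.0738 and 0.0721). DESeq2 did not call Col4a5 (adjusted p = 0.082). With the trend over GC content and length removed, Itgb4, Lamc1 and Lamb3 were not called (adjusted p = 0.0917, 0.0635 and 0.152). Libraries did differ in that trend: the rank correlation of a library's deviation with GC content, across genes, was 0.082 to 0.108 in OCY-EV+ANTA, -0.27 to -0.103 in OCY-EV+ANTA-NC and -0.009 to 0.226 in Veh, and the median GC content was 56.3% over the 42 genes and 49.6% over all genes tested.

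**Figure D3:**
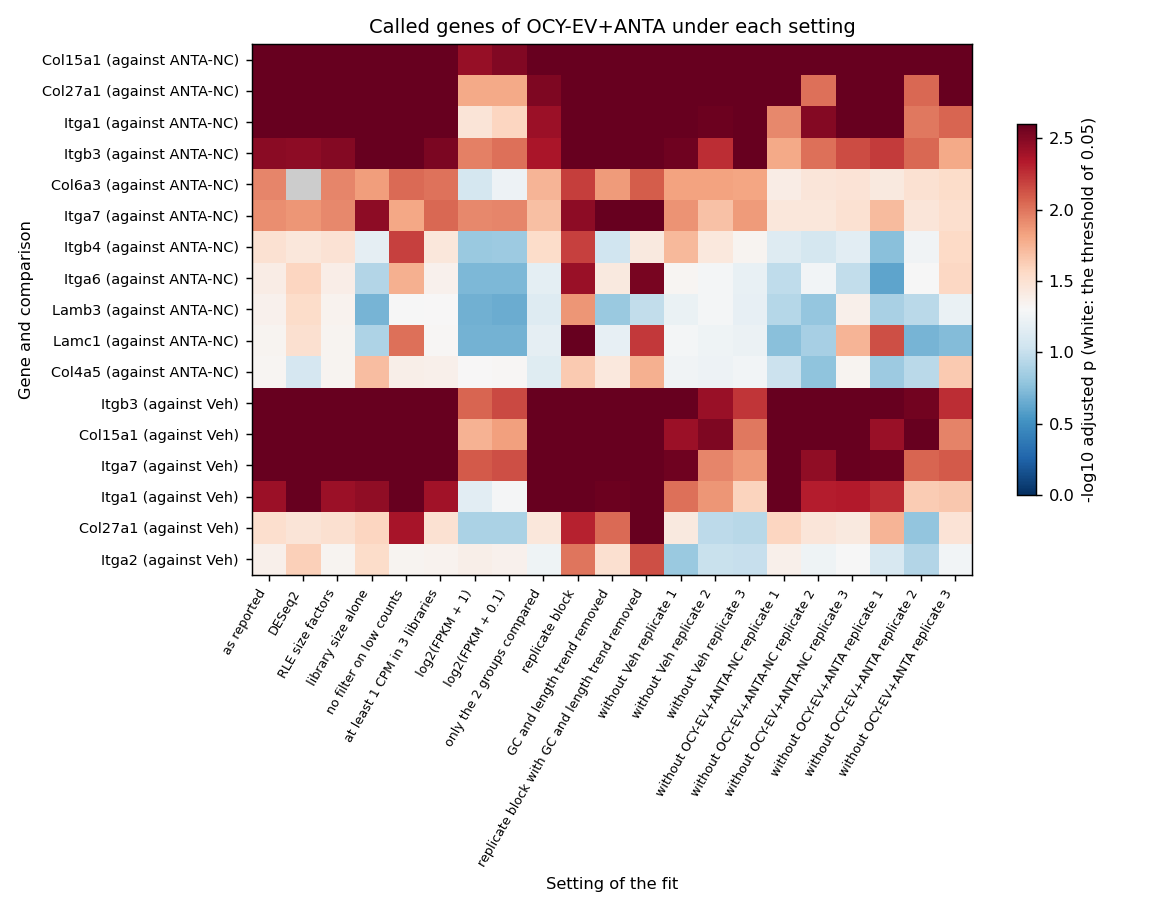
Negative log10 of the adjusted p (colour, with white at the threshold of 0.05) for each called gene and comparison of OCY-EV+ANTA (down) under each setting of the fit (across), with grey where a tool gave none. Col15a1, Itgb3 and Itga7 stay on the called side in every column, while Lamb3, Lamc1 and Itga6 cross it in many.

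Markers of other cells moved with this comparison in part. The 6 bile duct markers summed to 3825 to 4140.0 CPM in OCY-EV+ANTA, 3521 to 3668 in OCY-EV+ANTA-NC and 3808 to 3886 in Veh, and Krt19 rose against OCY-EV+ANTA-NC (0.19, adjusted p = 0.000344). The 8 hepatocyte markers summed to 58.0 to 69.5 CPM in OCY-EV+ANTA, 71.4 to 77.9 in OCY-EV+ANTA-NC and 68.5 to 71.5 in Veh. Of these Alb fell by 0.76 (adjusted p = 0.0387), Apoa1 by 0.68 (adjusted p = 0.0238) and Ttr by 1.28 (adjusted p = 0.00734), against OCY-EV+ANTA-NC. Ttr had only 10 to 43 counts per library. Hnf4a, which made up most of the hepatocyte sum at 49.0 to 66.1 CPM, was not called (-0.16, adjusted p = 0.185). Against Veh, Ttr was lower in OCY-EV+ANTA (-1.21, adjusted p = 0.0223), while Alb and Apoa1 were not called (adjusted p = 0.154 and 0.0680). The 10 stellate cell and fibroblast markers summed to 4.80 to 6.15 CPM in OCY-EV+ANTA, 4.76 to 5.26 in OCY-EV+ANTA-NC and 4.44 to 4.94 in Veh, and 4 of the 10 were at 0. Endothelial markers (7) summed to at most 2.54 CPM, macrophage markers (6) to 33.2 to 41.8 CPM, nearly all from Cd14 and Cd68, and osteocyte markers (5) to at most 0.488 CPM. The part of such shifts in the calls above was not tested.

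Osteocyte vesicles with the control antagomir against vehicle left the set without a call. In OCY-EV+ANTA-NC against Veh, edgeR called 0 of the 42 genes, DESeq2 and limma on FPKM also 0, and 3 were higher and 7 lower at an unadjusted p under 0.05. Over all genes tested 1.02% were called (118 of 11562), and 1561 had an unadjusted p under 0.05 in either direction. The median log2 fold change was -0.0074 over the 42 genes and -0.0047 over all. Values of well expressed genes were small. Itgb6 had 71.4, 51.1 and 59.4 CPM in OCY-EV+ANTA-NC and 60.3, 49.4 and 48.3 CPM in Veh (0.20, SE 0.09, adjusted p = 0.334), with the groups overlapping. Col4a2 gave -0.12 (SE 0.04, adjusted p = 0.185), Lamb3 -0.08 (SE 0.03, adjusted p = 0.172), Col18a1 -0.09 (SE 0.03, adjusted p = 0.15) and Col7a1, the anchoring fibril collagen, 0.24 (SE 0.08, adjusted p = 0.162). Itga1 gave 0.01 (SE 0.14), Itgb3 -0.09 (SE 0.06), Col15a1 0.09 (SE 0.08), Col27a1 0.10 (SE 0.06) and Itga7 -0.07 (SE 0.04). A p that misses the threshold does not show that these groups were alike.

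OCY-EV+ANTA against Veh gave 6 genes lower and 0 higher of the 42, or 14.3%. Beside the 0 higher in edgeR, 4 were higher at an unadjusted p under 0.05, DESeq2 called 1 (Itga6) and limma on FPKM called 0. In either direction 13 of the 42 genes and 2404 of all 11562 genes tested had an unadjusted p under 0.05. Over all genes tested 6.52% were called, 3.06% higher (354 genes) and 3.46% lower (400 genes), and the median log2 fold change was -0.0216 over the 42 genes and 0.0001 over all. This comparison shares its OCY-EV+ANTA libraries with the first and its Veh libraries with the second, so the 3 are not independent. Itgb3 averaged 31.9 ± 0.91 CPM in OCY-EV+ANTA and 41.3 ± 3.0 CPM in Veh (SD, n = 3 each), a difference of -0.37 in log2 (SE 0.06, adjusted p = 0.000586). Itga1 averaged 4.25 ± 0.26 CPM in OCY-EV+ANTA and 7.25 ± 0.52 CPM in Veh (-0.77, SE 0.15, adjusted p = 0.00383). Col15a1 gave -0.47 (SE 0.08, adjusted p = 0.00101), Itga7 -0.22 (SE 0.04, adjusted p = 0.00149) and Col27a1 -0.23 (SE 0.06, adjusted p = 0.0301). None of these 5 overlapped between the groups. The same was true of 16 of the 42 genes and of 2894 of all 11562 genes tested.

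Itga2 was the sixth gene lower than in Veh. This collagen receptor chain (chromosome 13, 114833081 to 114932100, minus strand) had 389.8, 389.7 and 399.8 CPM in OCY-EV+ANTA, 408, 415 and 419 CPM in OCY-EV+ANTA-NC, and 426, 418 and 419.9 CPM in Veh. OCY-EV+ANTA was under both other groups, by -0.10 against Veh (SE 0.03, adjusted p = 0.0425), a call kept only without OCY-EV+ANTA-NC 1 and lost without any other library (adjusted p up to 0.151). Col27a1 lost its call without OCY-EV+ANTA 2, Veh 2 or Veh 3 (adjusted p up to 0.162) and on the FPKM scale (0.129 with a pseudocount of 1), and Itga1 on the FPKM scale alone (0.0691 with a pseudocount of 1). Of the genes higher in the other comparison, Itga6 gave 0.13 (SE 0.04, adjusted p = 0.0579), Itgb4 0.19 (SE 0.06, adjusted p = 0.0787), Col6a3 0.34 (SE 0.20, adjusted p = 0.362), Lamc1 0.06 (SE 0.04, adjusted p = 0.487) and Lamb3 0.00 (SE 0.03, adjusted p = 0.965).

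**Figure D4:**
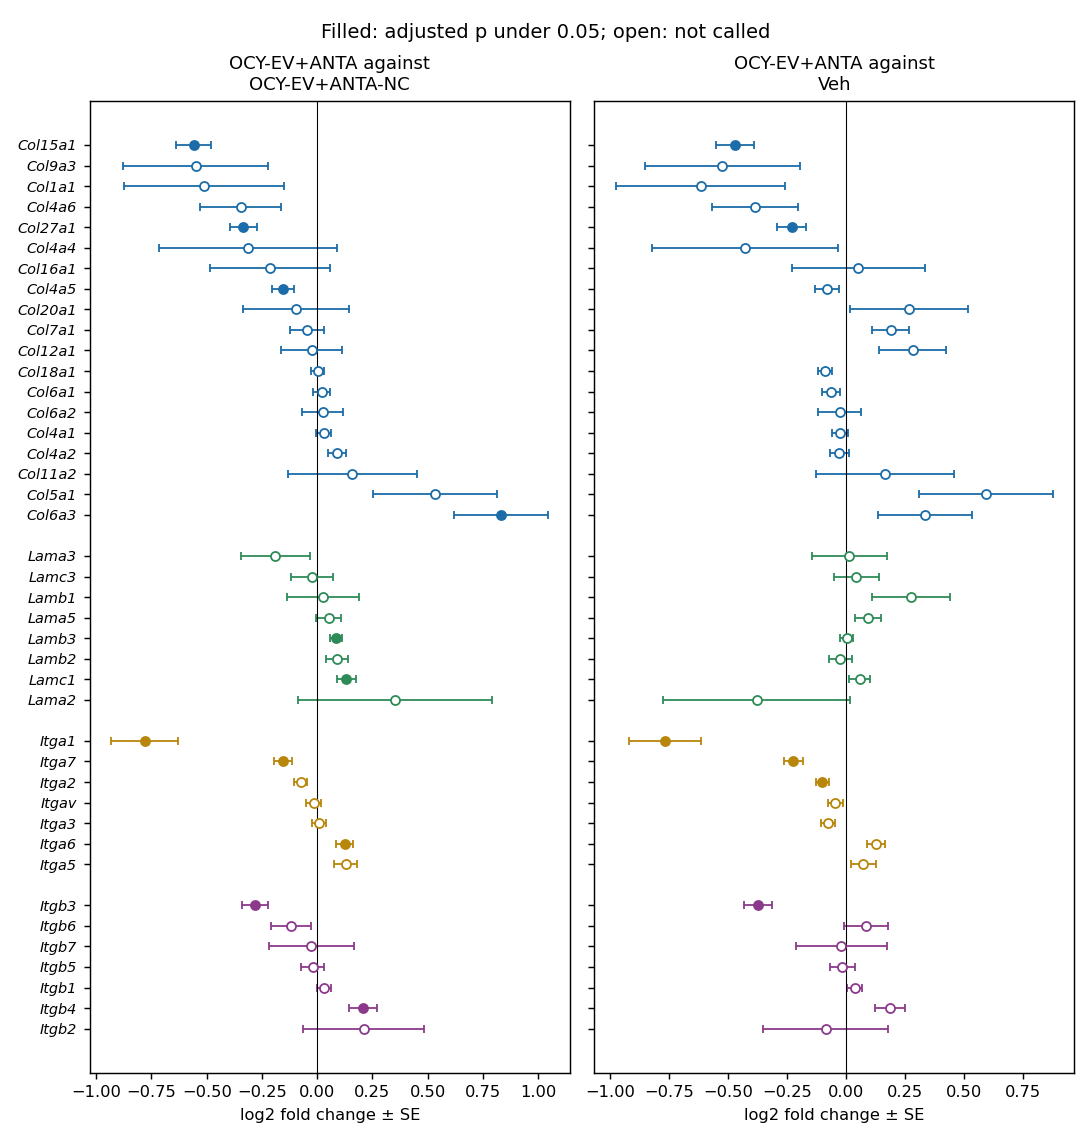
Log2 fold change with its SE for 41 of the 42 tested genes, in OCY-EV+ANTA against OCY-EV+ANTA-NC (left) and against Veh (right), by family; filled points were called and open points were not. Itga1 stands at -0.78 and -0.77 in the 2 panels, and Col6a3 at 0.83 and 0.34.

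The called genes were spread over levels and base composition. The 6 lower than in OCY-EV+ANTA-NC averaged 0.337 to 11.9 FPKM with a GC content of 42.8% to 59.4%, and the 5 higher averaged 0.182 to 105 FPKM with a GC content upward of 48.9%. Itga6, Lamc1 and Lamb3, among the higher, were more abundant than any of the 6 lower. The lower genes lay on chromosomes 4, 10, 11, 13 and X, and Col15a1 and Col27a1 share chromosome 4 without being neighbours.

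Enzymes and other proteins that help to build collagen were read from a list of 32 genes, 21 of them tested. Against OCY-EV+ANTA-NC, 3 were higher and 1 lower in OCY-EV+ANTA, or 19.0% of the list against 14.7% of all genes. P4ha1, a catalytic chain of prolyl 4-hydroxylase, averaged 441 ± 24 CPM in OCY-EV+ANTA and 375 ± 24 CPM in OCY-EV+ANTA-NC (0.23, SE 0.04, adjusted p = 0.00117). P4hb, the partner chain in this enzyme and a disulfide isomerase, rose too (0.12, SE 0.02, adjusted p = 0.00281). Another catalytic chain on the list was tested and not called. Pcolce, which speeds the trimming of procollagen, fell to 69.4 ± 1.7 CPM in OCY-EV+ANTA, against 79.5 ± 1.6 CPM in OCY-EV+ANTA-NC (-0.20, adjusted p = 0.00264). Against Veh 14.3% of the list was called, against 6.52% of all genes. There P4ha1 was again higher (0.17, adjusted p = 0.0198), while Pcolce (-0.30, adjusted p = 0.000124) and Colgalt1, a galactosyltransferase of collagen (-0.15, adjusted p = 0.0164), were lower.

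Proteins of the matrix around these chains moved both ways. Of 10 tested basement membrane partners 1 was called (10%, against 14.7% of all genes). Tinag, a basement membrane glycoprotein, was lower than in OCY-EV+ANTA-NC (-1.13, SE 0.32, adjusted p = 0.021) at 0.639 ± 0.10 CPM in OCY-EV+ANTA and 1.41 ± 0.21 CPM in OCY-EV+ANTA-NC, and DESeq2 gave it no adjusted p. None was higher there, with 3 higher at an unadjusted p under 0.05 and 0 higher in DESeq2 and limma. Against Veh 0 of the 10 were called (3 lower and 0 higher at an unadjusted p under 0.05, 0 in DESeq2, 1 lower in limma), with Tinagl1 at -0.13 (adjusted p = 0.0575) and Agrn, a heparan sulfate proteoglycan, at -0.11 (adjusted p = 0.205). Of 12 tested other matrix glycoproteins, 3 were higher and 3 lower than in OCY-EV+ANTA-NC (50%, against 14.7% of all genes), and 1 was higher and 2 lower than in Veh (25%, against 6.52%). Fn1, fibronectin, averaged 373 ± 10 CPM in OCY-EV+ANTA and 309 ± 14 CPM in OCY-EV+ANTA-NC (0.27, SE 0.04, adjusted p = 8.908e-05) and was also higher than in Veh (0.18, adjusted p = 0.00648). Mfge8, a ligand of integrins with the Itgav chain, rose by 0.16 (adjusted p = 0.00131). Thbs1, thrombospondin, was lower than in OCY-EV+ANTA-NC (-0.37, adjusted p = 0.000721) and than in Veh (-0.36, adjusted p = 0.00206). Postn, periostin, was lower than in Veh (-1.66, SE 0.35, adjusted p = 0.0058), at 0.486 ± 0.19 CPM in OCY-EV+ANTA and 1.56 ± 0.14 CPM in Veh.

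Inside the cell, 30 integrin adaptors and focal adhesion genes were tested, of which 4 were higher and 1 lower than in OCY-EV+ANTA-NC (16.7%, near the 14.7% of all genes). Lims2, an adaptor of the complex with integrin-linked kinase, averaged 86.6 ± 5.6 CPM in OCY-EV+ANTA, 67.3 ± 2.1 CPM in OCY-EV+ANTA-NC and 72.7 ± 2.0 CPM in Veh (0.36, SE 0.05, adjusted p = 4.231e-05 against OCY-EV+ANTA-NC, and 0.25, adjusted p = 0.00273 against Veh). Flna, which crosslinks actin and binds integrin tails, rose by 0.14 (adjusted p = 0.00761), as did Cd47, a partner of integrins in the membrane (0.14, adjusted p = 0.0134). Against Veh 2 were higher and 3 lower (16.7%, against 6.52% of all genes), among them the adaptor Bcar1 (-0.16, adjusted p = 0.0136) and the actin linker Tns1 (-0.14, adjusted p = 0.0138). Of 9 other collagen and laminin receptors tested, Rpsa, a ribosomal protein also described as a laminin receptor, was called higher than in OCY-EV+ANTA-NC (0.09, adjusted p = 0.0154), which makes 11.1% of this list. None of the 9 was lower there (1 at an unadjusted p under 0.05, 0 in DESeq2, 1 in limma), and 0 were called against Veh (1 higher at an unadjusted p under 0.05, 0 in DESeq2 and limma), with Ddr2 at 0.21 (adjusted p = 0.134) and Sdc2 at -0.28 (adjusted p = 0.241).

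Among 17 tested matrix proteases and inhibitors, 2 were higher and 1 lower than in OCY-EV+ANTA-NC (17.6%, near the 14.7% of all genes). Of the activators of plasminogen, Plat was higher at 283 ± 4.8 CPM in OCY-EV+ANTA, against 237 ± 7.3 CPM in OCY-EV+ANTA-NC (0.26, adjusted p = 5.654e-05), and Plau was lower at 3.76 ± 0.29 CPM, against 6.24 ± 1.0 CPM (-0.73, SE 0.18, adjusted p = 0.00807). Against Veh, 2 were higher and 1 lower (17.6%, against 6.52% of all genes). Plat was again higher (0.18, adjusted p = 0.00273), and Timp2, an inhibitor of metalloproteases, was lower (-0.18, adjusted p = 0.00161).

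In OCY-EV+ANTA-NC against Veh, edgeR called 0 of the 99 tested genes of these 6 lists, with 2 higher and 19 lower at an unadjusted p under 0.05, 2 lower in DESeq2 and 0 in limma on FPKM. Of all 11562 genes tested, 1561 had an unadjusted p under 0.05 in either direction. The smallest adjusted p of each list belonged to Bsg, an inducer of metalloproteases (-0.09, adjusted p = 0.0812), Tns1 (-0.12, adjusted p = 0.0928), Plod2, a lysyl hydroxylase (0.18, adjusted p = 0.118), Tinagl1 (-0.12, adjusted p = 0.162), Mfge8 (-0.09, adjusted p = 0.168) and Dag1, the dystroglycan gene (-0.09, adjusted p = 0.302).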

How the data were processed

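For each of the 9 libraries the authors deposited a table of counts per gene and a table of FPKM. Reads were counted with HTSeq on mm10, per the submitters' processing notes. Aligner, annotation, versions and strand setting were not given in the sources used here. Deposited FPKM equalled the counts scaled by the library total and 1 length per gene, for all 16770 genes with a count (implied lengths agreed between libraries within 1.85e-09 base). GENCODE M21 (GRCm38, which is mm10) held 21851 of the 21959 identifiers.

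Counts as deposited were fitted with edgeR 4.0.16 (R 4.3.3) over all 9 libraries, with a coefficient per group, TMM factors and filterByExpr (count minimum 10, total 15), which left 11562 genes. Each comparison used the quasi-likelihood test, with Benjamini-Hochberg adjustment over these genes. The scripts were tested on simulated data. Alternatives were DESeq2 1.42.0, limma 3.58.1 on log2(FPKM + 1) and log2(FPKM + 0.1), DESeq2's size factors and library totals in edgeR, no filter, 1 CPM in 3 libraries, only the 2 groups compared, a replicate block, a GC and length trend removed (mgcv 1.9.3), and each library left out.

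Named were every called gene of the set, the 4 highest of each family by mean FPKM, their partner chains, and of each list up to 3 called genes per comparison with the smallest adjusted p, or 2 where none was called; Col7a1, Col1a1 and Itgb8 were named after their values were seen. A gene of the set and a gene of a list are not reported here. The genes, lists and tests were chosen with earlier results of these data known.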

Additional observations from a re-analysis of the deposited data

How the results depend on the processing

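No called gene of the set turned its direction under any setting. In OCY-EV+ANTA against OCY-EV+ANTA-NC, the 5 genes of the set called higher became 1 with library totals alone, 0 with log2(FPKM + 1), 0 with log2(FPKM + 0.1), 2 with only the 2 groups compared, 2 with the GC and length trend removed, and 1 to 4 with a library left out. The 6 lower stayed at 5 to 7, and at 5 to 6 with a library left out. In OCY-EV+ANTA-NC against Veh, 0 higher and 0 lower became 1 and 1 with no filter on low counts, and stayed at 0 with any library left out. In OCY-EV+ANTA against Veh, 0 higher became 1 with DESeq2, 3 with no filter and 0 to 1 with a library left out, and the 6 lower became 4 to 6 with a library left out and 4 to 8 under the other settings. The cause of these shifts was not tested. Same-numbered libraries of different groups deviated together with correlations of 0.029 to 0.245 across genes. Libraries with different numbers gave -0.152 to 0.078, so same-numbered pairs tended higher. Since not every same-numbered pair was above 0.1, the fit reported did not pair libraries by number. Whether the numbers mark a batch was not tested. A replicate block gave 7 higher and 7 lower in OCY-EV+ANTA against OCY-EV+ANTA-NC, 1 higher and 2 lower in OCY-EV+ANTA-NC against Veh, and 3 higher and 7 lower in OCY-EV+ANTA against Veh. The block with the GC and length trend removed gave 1 higher and 1 lower in OCY-EV+ANTA-NC against Veh, and 2 higher in OCY-EV+ANTA against Veh. Counts over all genes moved too. In OCY-EV+ANTA against OCY-EV+ANTA-NC, 878 higher and 820 lower became 1261 and 1166 with the block. In OCY-EV+ANTA-NC against Veh, 94 higher and 24 lower became 128 and 54 with DESeq2, 242 and 93 with no filter, 46 and 2 with log2(FPKM + 1), and 312 and 210 with the block. The filter left out 34 of the 76 genes, with at most 9 counts in a library, and with no filter 68 of the 76 were tested.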
